A study of Homo sapiens with 8 samples.

Results

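EXPH5, TRIM62, NXPH3 and WDR17 were followed in G401 rhabdoid tumor cells together with the genes annotated within 200 kb of each. The 4 genes were chosen on the RNA change that 12 h of SMARCB1 re-expression produced in these same libraries, EXPH5 and TRIM62 as genes that rose and NXPH3 and WDR17 as genes that fell. They were 4 of 69215 genes listed, and all 4 were among the 15931 genes that passed the expression filter. The choice rested on the SMARCB1 line with and without doxycycline, so values in that comparison are given as a description without a test. Neighbours were chosen by position alone, so they were tested, and the question asked was whether they moved with the gene beside them.

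EXPH5 encodes exophilin 5, an effector of the small GTPase Rab27 that acts in vesicle traffic and exocytosis, and loss of EXPH5 causes a skin fragility disorder. TRIM62 encodes a RING-type E3 ubiquitin ligase of the tripartite motif family with a known part in the polarity of mammary acini. NXPH3 encodes a neurexophilin, a secreted glycoprotein that binds alpha-neurexins at synapses. WDR17 encodes a WD-repeat protein whose function is little described. SMARCB1 is a core subunit of the SWI/SNF chromatin remodelling complexes (mSWI/SNF), which move nucleosomes at promoters and enhancers, and its loss is the defining lesion of rhabdoid tumors.

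The established line G401 comes from a kidney rhabdoid tumor and has lost SMARCB1, so every group shared that loss. One derivative of the line carried SMARCB1 and another carried GFP, each under a Tet-On promoter that doxycycline (Dox) switches on. For 12 h both derivatives were given either 0.1 µg/ml Dox or dimethylsulfoxide (DMSO), its solvent, which gave the groups SMARCB1 DMSO, SMARCB1 Dox, GFP DMSO and GFP Dox with 2 libraries each. Each transgene was represented by a single engineered derivative, so differences between the lines without Dox cannot be told apart from differences between derivatives. The study's methods state that plates of a condition were pooled at harvest and that experiments were done in duplicate. No further record of separate cultures was found, so p-values measure the spread between these libraries.

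Counts assigned to genes totalled 29632090 to 37597477 per library. Reads of SMARCB1 numbered 10 and 21 with DMSO and 30474 and 29383 with Dox in the SMARCB1 line, and 0 in each of the 4 GFP libraries, where a count of 0 allows up to 0.101 CPM (counts scaled to a common library size, here from a floor of 3 counts in a library). SMARCB1 thus matched the labels of line in 8 of 8 libraries and of Dox in the SMARCB1 line. GFP reads were not analysed here, so the Dox labels of the GFP line were not checked. The share of mitochondrially encoded genes ran from 18.9% to 27.9%. It was higher in SMARCB1 DMSO (27.9% and 23.9%) than in SMARCB1 Dox (22.9% and 21.3%), and its part in the differences given here was not tested. Without SMARCB1 DMSO replicate 1, the library at the upper end, 1462 genes were called in the SMARCB1 line in place of 2234. The 5 immune markers summed to 2.68 to 2.91 CPM in SMARCB1 DMSO and 1.17 to 1.80 CPM in SMARCB1 Dox, nearly all of it CD68, and the 4 endothelial markers summed to at most 0.801 CPM in a library. CD3E and KDR, a T cell and an endothelial marker, had 0 counts throughout. The 5 epithelial markers summed to 542 to 994 CPM, nearly all of it the keratins KRT8 and KRT18, while EPCAM had at most 7 counts in a library. The 5 mesenchymal markers summed to 2872 to 3224 CPM in the SMARCB1 line and to 1603 to 1792 CPM in the GFP line.

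Start regions of the genes are shown first, because the question of shared behaviour with neighbours begins with where each gene starts. The RefSeq promoter table (GRCh38.p14) gave 300 bases per start, of which 250 lie before it and 50 after it, and listed 3 starts for EXPH5, 2 for TRIM62, 1 for WDR17 and 0 for NXPH3. Sequences read 5′ to 3′ on the strand of the gene. Capitals mark a match to TGANTCA, an open form of the motif of AP-1 transcription factors in which N stands for any base. The first EXPH5 start (chr11:108593719-108594018, minus strand) held no match.
EXPH5 start 1: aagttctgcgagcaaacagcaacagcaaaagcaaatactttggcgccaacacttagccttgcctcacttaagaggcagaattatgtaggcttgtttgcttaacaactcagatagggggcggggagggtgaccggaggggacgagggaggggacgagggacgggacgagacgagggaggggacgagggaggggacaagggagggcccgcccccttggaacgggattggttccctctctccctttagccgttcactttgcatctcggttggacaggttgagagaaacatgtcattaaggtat
The third EXPH5 start (chr11:108538128-108538427, minus strand) lies 55.6 kb inside the gene and held the letters TGACTCA from position 35, counted from the 5′ end of the sequence.
EXPH5 start 3: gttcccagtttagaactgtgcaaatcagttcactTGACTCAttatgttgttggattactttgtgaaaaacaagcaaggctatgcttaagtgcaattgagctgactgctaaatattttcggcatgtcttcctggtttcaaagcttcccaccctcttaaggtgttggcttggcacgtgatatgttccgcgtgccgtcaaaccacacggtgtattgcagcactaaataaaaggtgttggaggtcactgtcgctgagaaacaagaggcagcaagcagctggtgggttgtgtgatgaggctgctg
The first TRIM62 start (chr1:33181994-33182293, minus strand) held no match.
TRIM62 start 1: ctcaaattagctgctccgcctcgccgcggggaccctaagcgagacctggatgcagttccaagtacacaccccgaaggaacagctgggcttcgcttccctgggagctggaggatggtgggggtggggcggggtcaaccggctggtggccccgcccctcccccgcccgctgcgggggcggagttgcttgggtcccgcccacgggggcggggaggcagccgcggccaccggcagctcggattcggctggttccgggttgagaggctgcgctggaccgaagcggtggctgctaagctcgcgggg
The second TRIM62 start (chr1:33176501-33176800, minus strand) lies 5.51 kb inside the gene and held TGACTCA from position 20.
TRIM62 start 2: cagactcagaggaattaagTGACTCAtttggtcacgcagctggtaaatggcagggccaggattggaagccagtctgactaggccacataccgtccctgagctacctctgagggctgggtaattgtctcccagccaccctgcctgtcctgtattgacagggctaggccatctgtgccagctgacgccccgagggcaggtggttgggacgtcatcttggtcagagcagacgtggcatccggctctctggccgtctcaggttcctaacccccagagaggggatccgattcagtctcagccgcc
The single WDR17 start (chr4:176065591-176065890, plus strand) held no match.
WDR17 start 1: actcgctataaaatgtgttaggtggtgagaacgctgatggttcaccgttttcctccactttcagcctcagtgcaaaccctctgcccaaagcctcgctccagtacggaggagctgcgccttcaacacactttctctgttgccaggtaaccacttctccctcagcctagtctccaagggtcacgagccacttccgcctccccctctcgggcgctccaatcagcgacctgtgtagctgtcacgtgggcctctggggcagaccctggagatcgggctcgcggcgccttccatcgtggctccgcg

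EXPH5 and TRIM62 thus had the AP-1 letters at an internal start and not at the outermost start, and WDR17 had none. FAM117A, a neighbour of NXPH3, had such letters (TGAATCA) at the second of its 2 listed starts and none at the first. Both of these starts lie inside the annotated gene, so the outermost start of FAM117A was not among those searched. TGANTCA was searched on both strands and occurred in 7.71% of the 35116 promoters in the table. It occurred in at least 1 start of 12.2% of genes with 2 starts and 17.3% of genes with 3 starts, so a match was not rare. GGAATG, the core motif of TEAD factors, was searched on both strands and was found in none of these windows, against 14% of all promoters. GC content was 55.3% at the first EXPH5 start, 71.3% at the first TRIM62 start and 59.7% at the WDR17 start, beside a median of 58.7% over all promoters. CpG dinucleotides numbered 14, 28 and 19 in these windows, beside a median of 14. The counts are sums over all transcripts of a gene, so which start was used was not measured, and a match describes letters only.

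EXPH5 was low in 3 of the 4 groups and high in the fourth. The gene spans positions 108505435 to 108593768 of chromosome 11 (GRCh38) on the minus strand. Its level was 4.01 and 4.46 CPM in SMARCB1 DMSO and 21.6 and 29.2 CPM in SMARCB1 Dox. In the GFP line it was 3.52 and 4.19 CPM with DMSO and 3.41 and 4.51 CPM with Dox. Both SMARCB1 Dox libraries thus lay above all 6 others, and the 6 others overlapped between groups. Means were 4.24 ± 0.314 and 25.4 ± 5.34 CPM (SD, n = 2) and differed by 2.58 on the log2 scale (standard error 0.17), or 5.98-fold. The SMARCB1 Dox libraries differed from each other by 1.35-fold. In bulk RNA, a change in the share of cells that make a transcript and a change in the amount per cell cannot be told apart.

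TRIM62 rose by a smaller factor, from a level below that of the GFP line. The gene spans positions 33145399 to 33182059 of chromosome 1 on the minus strand. Its level was 1.89 and 2.06 CPM in SMARCB1 DMSO and 8.26 and 8.21 CPM in SMARCB1 Dox. With GFP it was 3.55 and 4.19 CPM with DMSO and 4.74 and 4.07 CPM with Dox. The order of the groups was SMARCB1 Dox, then the overlapping GFP groups, then SMARCB1 DMSO. The log2 fold change in the SMARCB1 line was 2.06 (standard error 0.185), or 4.16-fold. Measured from GFP DMSO instead, SMARCB1 DMSO stood at a log2 difference of -0.97.

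NXPH3 fell in the SMARCB1 line from a level that was already below that of the GFP line. The gene spans positions 49575871 to 49583827 of chromosome 17 on the plus strand, and at 7957 bases it was the shortest of the 4 gene bodies. Its level was 10.1 and 11.0 CPM in SMARCB1 DMSO and 3.32 and 4.52 CPM in SMARCB1 Dox. In the GFP line it was 23.7 and 31.1 CPM with DMSO and 25.7 and 28.7 CPM with Dox. The GFP groups overlapped, and each SMARCB1 group lay below them and apart from the other. The log2 fold change in the SMARCB1 line was -1.43 (standard error 0.163), or 2.70-fold lower, and SMARCB1 DMSO stood at -1.37 from GFP DMSO on the same scale.

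WDR17 was at like levels in 3 groups and lower in SMARCB1 Dox. The gene spans positions 176065841 to 176182818 of chromosome 4 on the plus strand. Its level was 14.2 and 15.1 CPM in SMARCB1 DMSO and 5.39 and 6.58 CPM in SMARCB1 Dox. GFP libraries held 15.5 and 17.0 CPM with DMSO and 15.1 and 15.2 CPM with Dox. The SMARCB1 DMSO and GFP Dox ranges overlapped, and GFP DMSO lay just above both. The log2 fold change in the SMARCB1 line was -1.29 (standard error 0.132), or 2.44-fold lower. The 4 genes had SMARCB1 Dox and SMARCB1 DMSO libraries that did not overlap, as did 51.2% of all tested genes, and this was part of how they were chosen.

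**Figure D1:**
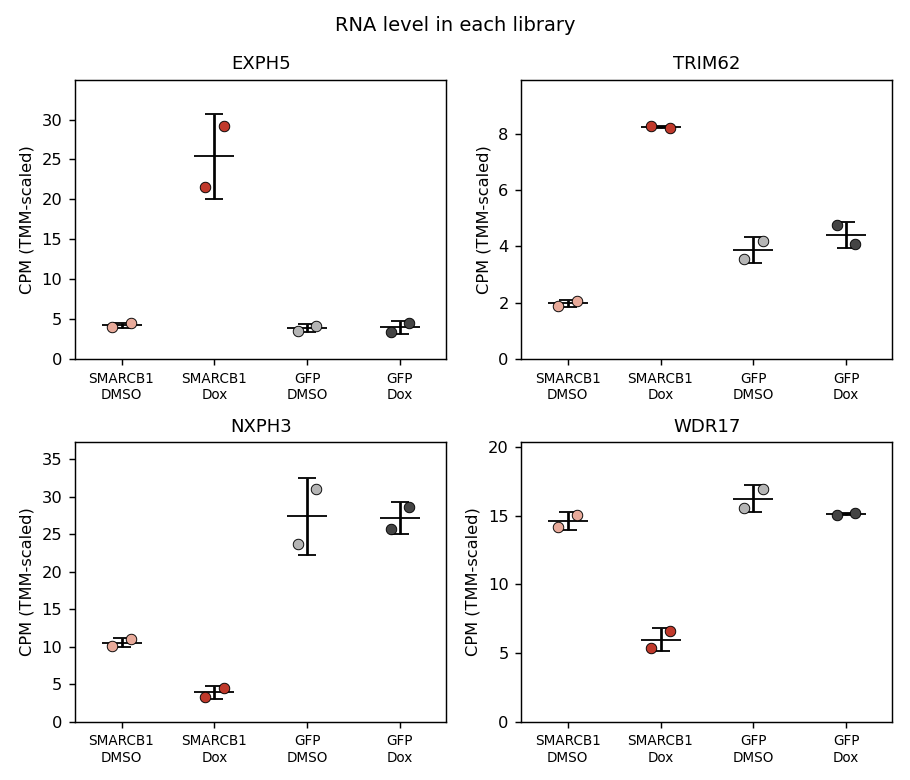
RNA level of EXPH5, TRIM62, NXPH3 and WDR17 in each of the 8 libraries, in CPM scaled with TMM factors, with 1 panel per gene. Points are libraries, horizontal lines are means of 2 and bars are SD. EXPH5 goes from 4.01 and 4.46 CPM to 21.6 and 29.2 CPM in SMARCB1 Dox alone, whereas NXPH3 also separates the lines without Dox.

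Among genes with a symbol, a mean of at least 5 CPM in the libraries compared, an adjusted p under 0.05 and no overlap between the groups, 957 rose and 771 fell in the SMARCB1 line. In this order EXPH5 ranked 3 and TRIM62 ranked 5 of those that rose, with SMARCB1 itself at 1, C19orf73 at 2 and HS3ST3B1 at 4. The first gene below TRIM62 was KSR1, with a log2 fold change of 2.03 against 2.06. TRIM62 met the cut of 5 CPM only through SMARCB1 Dox, with means of 1.97 CPM in SMARCB1 DMSO and 8.24 CPM in SMARCB1 Dox. Genes below this cut were not ranked, among them TRIM22, given below, which rose by more. NXPH3 ranked 4 and WDR17 ranked 5 of those that fell, and the first gene beyond WDR17 was UTS2B, at -1.19 against -1.29. The 4 genes were therefore near the ends of the ranking and not at its very ends.

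Per kb of exon, the 4 genes were weakly to moderately expressed. EXPH5 went from 0.387 to 2.32 CPM per kb with SMARCB1, which moved it from percentile 15.2 to percentile 37.0 among 12412 tested protein-coding genes. TRIM62 went from 0.497 to 2.07 CPM per kb, or from percentile 17.2 to 34.8. In SMARCB1 DMSO both falling genes stood at 1.87 CPM per kb, and with SMARCB1 NXPH3 reached 0.695 and WDR17 reached 0.768 CPM per kb. The rising genes thus ended slightly above the level from which the falling genes began. In GFP DMSO the highest of the 4 per kb was NXPH3, at 4.86 CPM per kb (percentile 54.0), and the lowest was EXPH5, at 0.353 CPM per kb.

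Dox was then compared with DMSO in the GFP line, which controls for the drug and for induction of a foreign protein and took no part in the choice of genes. None of the 4 genes passed the test there. The log2 fold change of EXPH5 was 0.04 (95% interval -0.35 to 0.44), that of TRIM62 was 0.18 (-0.19 to 0.54), that of NXPH3 was -0.01 (-0.28 to 0.26) and that of WDR17 was -0.10 (-0.36 to 0.15). Unadjusted p-values in the edgeR quasi-likelihood test were 0.829, 0.319, 0.929 and 0.402, and each adjusted p was 1. Over all genes 0% were called by edgeR, 0 were called by DESeq2 and 1.67% had an unadjusted p under 0.05. The outermost bound of the 4 intervals was thus 0.54 on the log2 scale, well inside the changes described for the SMARCB1 line. The signs of the EXPH5 and NXPH3 values in the GFP line turned when single libraries were left out.

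**Figure D2:**
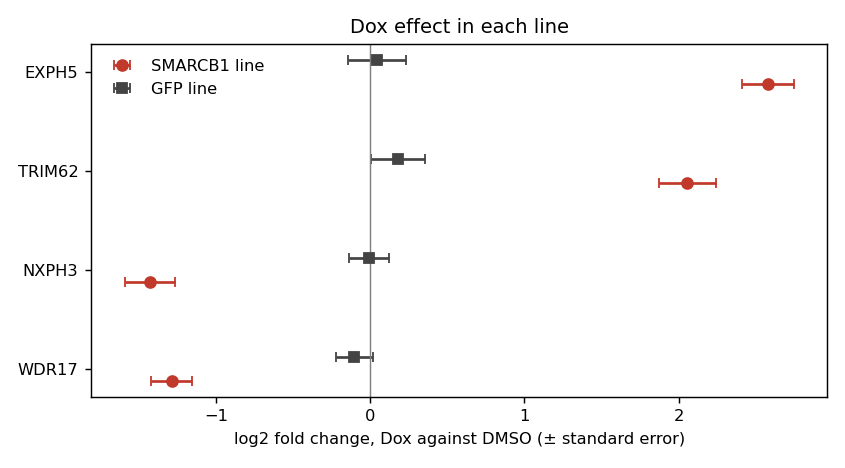
Log2 fold change of Dox against DMSO for each of the 4 genes, in the SMARCB1 line (circles) and in the GFP line (squares), with bars of 1 standard error. Values in the SMARCB1 line run from -1.43 to 2.58 and those in the GFP line from -0.10 to 0.18. The SMARCB1 values chose the genes and carry no test.

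The difference of the Dox effects between the lines contains the comparison on which the genes were chosen and is given without a test. On the log2 scale it was 2.54 for EXPH5, 1.88 for TRIM62, -1.42 for NXPH3 and -1.18 for WDR17. These values stayed close to the effects in the SMARCB1 line, since the effects in the GFP line were small.

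The neighbourhoods differed widely in how many genes they held. GENCODE annotates 53 genes within 200 kb of the 4 gene bodies, of which 6 lie near EXPH5, 20 near TRIM62, 17 near NXPH3 and 10 near WDR17. No read was counted for 17 of them in any library. Another 20 had some reads and did not pass the expression filter, with at most 9 counts in a library. The remaining 16 were tested, 4 near EXPH5, 5 near TRIM62, 5 near NXPH3 and 2 near WDR17, and 15 of the 16 were protein-coding. Only ENSG00000279179, an unclassified transcript on the strand opposite to TRIM62, shared annotated exon bases with one of the 4 genes, 96 bases in all, and it had at most 4 counts in a library.

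With SMARCB1 re-expression 2 of the 16 tested neighbours were called (12.5%), beside 14% of all tested genes (8.33% higher and 5.69% lower). Both lie downstream of NXPH3, SPOP at 15.1 kb and FAM117A at 127 kb. FAM117A rose and SPOP fell, so the pair moved in opposite directions beside a gene that fell. The median log2 fold change of the 16 was -0.11, beside -0.0038 over all genes. An unadjusted p under 0.05 was reached by 9 of the 16 and by 26% of all tested genes. The sign was that of the nearby chosen gene in 1 of 4 neighbours of EXPH5, 4 of 5 of TRIM62, 3 of 5 of NXPH3 and 2 of 2 of WDR17. Which neighbours were called changed when libraries were left out singly, in fits that left a single library in a group. FAM117A was called in each of these fits, and SPOP was not called in most of them. The counts are given with the alternatives, beside those over all genes. When library totals replaced TMM scaling, the share of all called genes that rose went from 59.4% to 80%. The relation of neighbours to all genes also changed with the model. With a replicate block in the fit 7 of the 16 neighbours were called, beside 3149 of the 15931 genes.

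**Figure D3:**
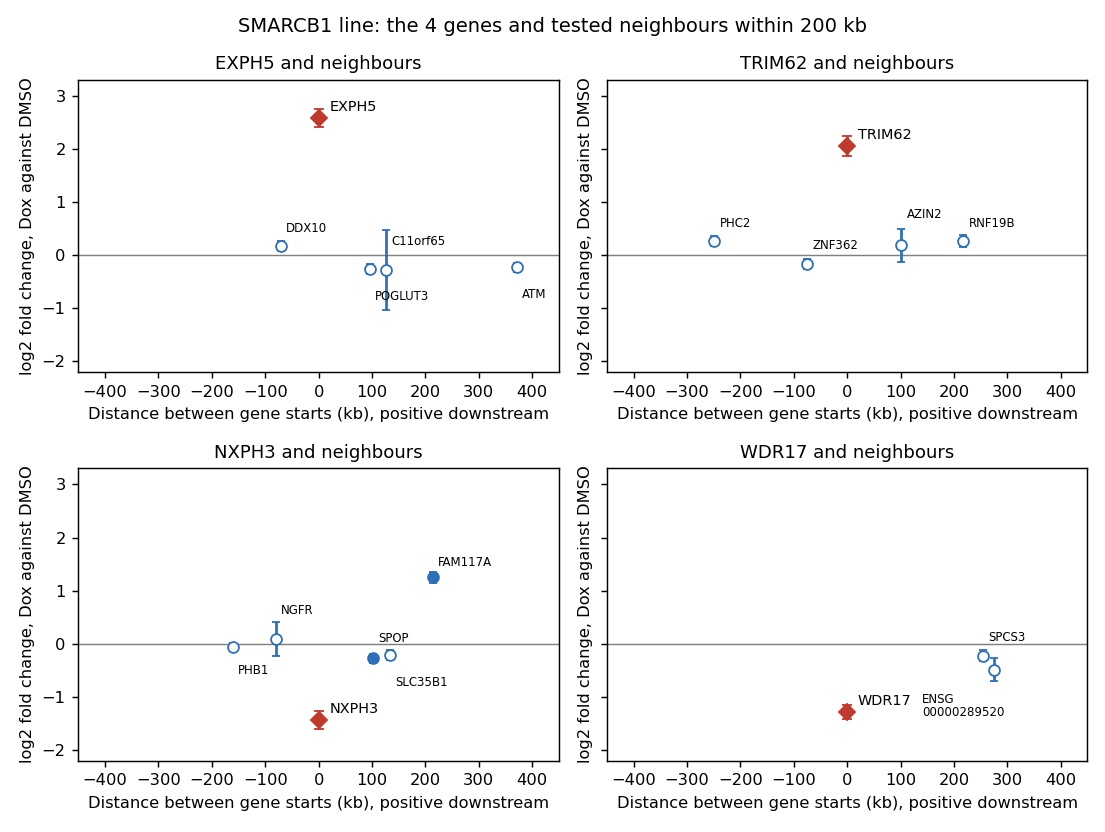
Log2 fold change of Dox against DMSO in the SMARCB1 line (bars, 1 standard error) against the distance between gene starts in kb, positive downstream of the chosen gene, in 1 panel per neighbourhood. The plot shows 15 of the 16 tested neighbours. Diamonds are the 4 chosen genes, filled circles are neighbours called and open circles are neighbours not called. FAM117A, at 1.25, stands farthest from 0 of the 16 neighbours, on the side opposite to NXPH3.

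POGLUT3 is the tested gene closest to any of the 4. It encodes an O-glucosyltransferase of the endoplasmic reticulum and lies 7.03 kb beyond the 3′ end of EXPH5 on the same strand. Its level was 210 and 173 CPM in SMARCB1 DMSO, 159 and 161 CPM in SMARCB1 Dox, 181 and 170 CPM in GFP DMSO and 184 and 160 CPM in GFP Dox. The SMARCB1 Dox libraries were the lower ones in their line and overlapped with GFP Dox. Its log2 fold change was -0.26 (standard error 0.0926, edgeR adjusted p = 0.0657), opposite in sign to that of EXPH5 and not called. Without SMARCB1 DMSO replicate 2 it was -0.39 and called (adjusted p = 0.00775), and it was also called without the expression filter (-0.25, adjusted p = 0.0359).

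On the other side of EXPH5 the nearest tested gene was DDX10, an RNA helicase gene 71.3 kb away. It was at 31.3 and 29.8 CPM in SMARCB1 DMSO and 32.7 and 36.0 CPM in SMARCB1 Dox, a log2 fold change of 0.17 (edgeR adjusted p = 0.293). ATM, the DNA damage kinase gene, stood at -0.23 (adjusted p = 0.0846). C11orf65, which overlaps ATM on the opposite strand, had 74 counts in all 8 libraries together and a value of -0.28 whose sign turned when single libraries were left out. In the fit over all 8 libraries none of these neighbours of EXPH5 was called, and fits in which some were called are given with the alternatives.

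Around TRIM62 no gene described here was called in the fit over all 8 libraries. AZIN2, an antizyme inhibitor gene 21.9 kb away and the nearest, was at 2.02 and 1.00 CPM in SMARCB1 DMSO and 1.71 and 1.69 CPM in SMARCB1 Dox, so its groups overlapped. ZNF362, a zinc finger gene 74.4 kb away on the other side, stood at -0.16 (edgeR adjusted p = 0.328). RNF19B, an E3 ubiquitin ligase gene, stood at 0.26 (adjusted p = 0.153), and without SMARCB1 DMSO replicate 2 it was 0.44 and called (adjusted p = 0.0331). PHC2, a Polycomb gene 142 kb from TRIM62, came nearest to a call. It was at 45.1 and 51.7 CPM in SMARCB1 DMSO, 59.2 and 57.0 CPM in SMARCB1 Dox, 29.0 and 27.0 CPM in GFP DMSO and 27.5 and 27.8 CPM in GFP Dox. Its log2 fold change was 0.26 (standard error 0.089, adjusted p = 0.053), against 2.06 for TRIM62. PHC2 was called at 0.35 with library totals in place of TMM scaling (adjusted p = 0.0137) and at 0.37 without SMARCB1 DMSO replicate 2 (adjusted p = 0.0227).

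FAM117A, a gene of little-described function 127 kb from NXPH3, was the neighbour that moved most. Its level was 20.3 and 24.3 CPM in SMARCB1 DMSO and 48.9 and 57.7 CPM in SMARCB1 Dox. GFP libraries held 35.1 and 38.4 CPM with DMSO and 39.5 and 39.0 CPM with Dox. The SMARCB1 groups lay on either side of all 4 GFP libraries. Its log2 fold change was 1.25 (standard error 0.104, edgeR adjusted p = 4.91e-08), or 2.39-fold, in a direction opposite to that of NXPH3. The Dox effect differed between the lines by 1.16 on the log2 scale (adjusted p = 4.15e-05), a difference called for 1 of the 16 neighbours (6.25%) and for 4.71% of all genes. Both calls held in each alternative, with values from 1.13 to 1.39 in the SMARCB1 line and from 1.04 to 1.30 for the difference.

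SPOP, which encodes the substrate adaptor of a CUL3 ubiquitin ligase, is the nearest tested gene downstream of NXPH3, at a distance of 15.1 kb. Its level was 102 and 99.6 CPM in SMARCB1 DMSO, 74.6 and 91.7 CPM in SMARCB1 Dox, 129 and 124 CPM in GFP DMSO and 127 and 128 CPM in GFP Dox. The log2 fold change was -0.28 (standard error 0.0894, edgeR adjusted p = 0.0432), or 1.21-fold lower, beside 2.70-fold for NXPH3. The call was lost when 7 of the 8 libraries were left out singly. In 6 of these the value stayed between -0.26 and -0.29 (adjusted p from 0.0576 to 0.14), and without SMARCB1 Dox replicate 1 it was -0.13 (adjusted p = 0.472). Over its alternatives the adjusted p ran from 0.00429 to 0.472. The difference of the Dox effects was -0.29 (adjusted p = 0.249), and without SMARCB1 Dox replicate 2 it was -0.44 (adjusted p = 0.0372).

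SLC35B1, a transporter gene that lies between SPOP and FAM117A, stood at -0.21 (edgeR adjusted p = 0.129). On the upstream side the nearest tested gene was NGFR, a neurotrophin receptor gene 60.9 kb away, at 0.961 and 0.880 CPM in SMARCB1 DMSO and 0.871 and 1.09 CPM in SMARCB1 Dox. Its groups overlapped, and the value of 0.09 had no stable sign. PHB1, the prohibitin gene, stood at -0.06. Within one stretch of chromosome 17 the tested genes thus ran in the order not called, not called, NXPH3 lower, SPOP lower, not called, FAM117A higher.

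**Figure D4:**
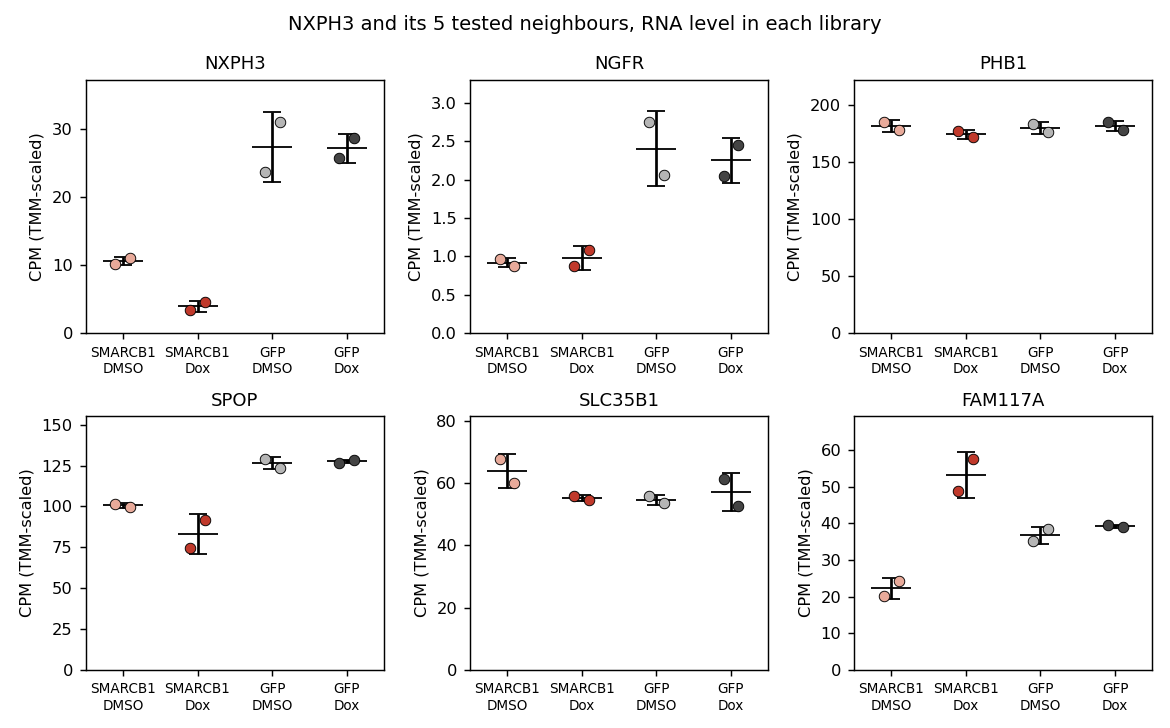
RNA level in CPM (TMM-scaled) of NXPH3 and the 5 tested genes within 200 kb of it, by group, with points for libraries, lines for means of 2 and bars for SD. FAM117A rises from 20.3 and 24.3 to 48.9 and 57.7 CPM with SMARCB1 while NXPH3 falls, and PHB1 stays between 172 and 185 CPM in all 8 libraries.

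WDR17 had few expressed neighbours. No gene on its lower-coordinate side was tested, since GPM6A, a neuronal membrane glycoprotein gene, had 5 counts in all 8 libraries together. SPATA4 and ASB5, which lie nearest on the other side, had 15 and 3 counts in all. The nearest tested gene was SPCS3, a signal peptidase subunit gene 137 kb away, at 340 and 277 CPM in SMARCB1 DMSO and 273 and 256 CPM in SMARCB1 Dox. Its log2 fold change was -0.22 (edgeR adjusted p = 0.154), and without SMARCB1 DMSO replicate 2 it was -0.36 and called (adjusted p = 0.0203). The non-coding gene ENSG00000289520 stood at -0.48 (adjusted p = 0.148), the lowest value of the 16, on 1.92 to 3.41 CPM. Whether neighbours of WDR17 moved could thus be asked of 2 genes only, both on one side.

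In the GFP line edgeR called 0 of the 16 neighbours, 0 had an unadjusted p under 0.05 and DESeq2 also called 0. Their log2 fold changes ran from -0.10 to 0.28. Without Dox, 7 of the 16 differed between the SMARCB1 and GFP lines (43.8%), beside 32% of all tested genes. NGFR was lower in SMARCB1 DMSO by a log2 difference of -1.38 (edgeR adjusted p = 0.000857) and FAM117A by -0.72 (adjusted p = 1.21e-05), and SPOP, ATM and DDX10 were lower by smaller amounts. PHC2 was higher by 0.79 (adjusted p = 4.74e-07) and SPCS3 by 0.35. Around NXPH3, which stood at -1.37, NGFR, SPOP and FAM117A were thus lower in SMARCB1 DMSO than in GFP DMSO. The other tested neighbours of NXPH3 were not lower, with SLC35B1 at 0.23 (edgeR adjusted p = 0.0581) and PHB1 at 0.02. With SMARCB1 re-expression FAM117A rose and SPOP fell, the latter a call that most fits with a library left out did not keep. Without GFP DMSO replicate 2 fewer neighbours differed between the lines, and fewer genes did over all tested genes, in a fit with a single library in that group. Library totals in place of TMM scaling moved the median of all genes in this comparison from 0.01 to -0.10 and the share of calls that were higher from 50.9% to 32.1%.

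Relatives and partners of the 4 genes were then counted, from lists assembled with earlier results of these data known. Of Rab27 and its effectors, the group to which EXPH5 belongs, 8 of 13 genes were tested and 0 were called with SMARCB1 by edgeR or DESeq2, with 1 at an unadjusted p under 0.05, beside 14% called and 26% at an unadjusted p under 0.05 over all tested genes. Their median log2 fold change was 0.25, beside -0.0038 over all genes, and none of these list shares was tested against the background. Over all 15931 genes DESeq2 called 1995 in this comparison, which is the background for its counts in the lists. RAB27A, the small GTPase itself, was at 21.8 and 20.0 CPM in SMARCB1 DMSO and 20.6 and 22.1 CPM in SMARCB1 Dox, a log2 fold change of 0.03. MYO5A, the motor recruited by such effectors, stood at 0.20 (edgeR adjusted p = 0.132). MLPH, another effector, was at 0.576 to 1.55 CPM in the SMARCB1 line and at 0 counts in the GFP line. SYTL4, SYTL5 and MYRIP had 0 counts in all libraries.

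Genes of skin fragility, to which EXPH5 also belongs, held 3 calls among 12 tested (25%), beside 14% of all tested genes called in either direction. All 3 were higher, beside 8.33% of all tested genes called higher. DESeq2 called 2 of the 12. JUP, the plakoglobin of desmosomes, rose from 37.0 and 41.9 to 70.2 and 81.9 CPM, a log2 fold change of 0.95 (edgeR adjusted p = 7.39e-07). ITGA3, an integrin chain of the basement membrane contact, rose from 17.4 and 14.7 to 26.6 and 27.0 CPM (log2 fold change 0.74, adjusted p = 0.00037). COL17A1, the hemidesmosomal collagen, had 1 and 2 counts in SMARCB1 DMSO and 37 and 14 in SMARCB1 Dox, a ratio of 16.0 with a counting interval of 5.16 to 79.9. DSP, the desmoplakin gene, stood at -0.02 and DST, the dystonin gene, at -0.12. KRT5 and KRT14 did not pass the filter. The median of the list was 0.16.

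Of 16 tested epithelial polarity genes, 2 were called by edgeR (12.5%), close to the 14% of all tested genes, and 1 by DESeq2. PARD3, a scaffold of the apical polarity complex, rose from 45.6 and 50.2 to 68.8 and 69.6 CPM, a log2 fold change of 0.53 (edgeR adjusted p = 0.00032). PARD6G, a partner of PARD3 in that complex, rose from 11.3 and 11.4 to 14.3 and 15.5 CPM (log2 fold change 0.39, adjusted p = 0.0393). CDH1, the E-cadherin gene, had 16 and 7 counts in SMARCB1 DMSO and 29 and 31 in SMARCB1 Dox and was not called (adjusted p = 0.12). The median of these genes was 0.16.

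Other TRIM family genes moved in both directions. Of 66 listed, 37 were tested, 8 rose and 5 fell (35.1%), beside 14% of all tested genes, and their median was 0.11. DESeq2 called 10 of the 37. TRIM22, an interferon-inducible member, had 0.412 and 0.546 CPM in SMARCB1 DMSO and 2.70 and 2.58 CPM in SMARCB1 Dox, a log2 fold change of 2.44 (edgeR adjusted p = 7.92e-05). TRIM38 had 1 and 2 counts in SMARCB1 DMSO and 37 and 15 in SMARCB1 Dox, a ratio of 16.3 with a counting interval of 5.27 to 81.4. TRIM2, a neuronal member, rose by 1.34 and TRIM11 by 0.63, whereas TRIM45 fell by 0.71 on the log2 scale. TRIM62, left out of these counts, was thus not the single member of its family with a higher level after re-expression.

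Among neurexophilins, neurexins and their partners 10 of 20 were tested, and edgeR called 2 higher and 1 lower (30%), beside 14% of all tested genes, whereas DESeq2 called 1 in all. NXPH4, a relative of NXPH3, rose from 2.71 and 2.61 to 5.25 and 3.95 CPM, a log2 fold change of 0.79 (edgeR adjusted p = 0.0278), while NXPH3 went the other way. NXPH1 and NXPH2 had 0 counts in all libraries. NRXN2, a neurexin, rose by 0.80 (adjusted p = 0.045) and NLGN1, a neuroligin, fell by 0.36 (adjusted p = 0.0139). The median of this list was 0.07.

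Of 50 tested genes named WDR, with WDR17 left out, 0 rose and 2 fell (4%), beside 14% of all tested genes, and DESeq2 called 2. WDR3, a factor of small ribosomal subunit assembly, went from 41.6 and 37.3 to 28.8 and 28.4 CPM, a log2 fold change of -0.46 (edgeR adjusted p = 0.00121). WDR35, a gene of intraflagellar transport, stood at -0.30 (adjusted p = 0.0436). The median was 0.03. Of all these lists, edgeR and DESeq2 called 0 genes in the GFP line, where 0 to 2 genes per list had an unadjusted p under 0.05. In the difference of the Dox effects edgeR called 25% of tested skin fragility genes, 6.25% of polarity genes and 5.41% of TRIM genes. It called 2% of WDR genes and 0% of the Rab27 and neurexophilin lists, beside 4.71% of all tested genes.

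**Figure D5:**
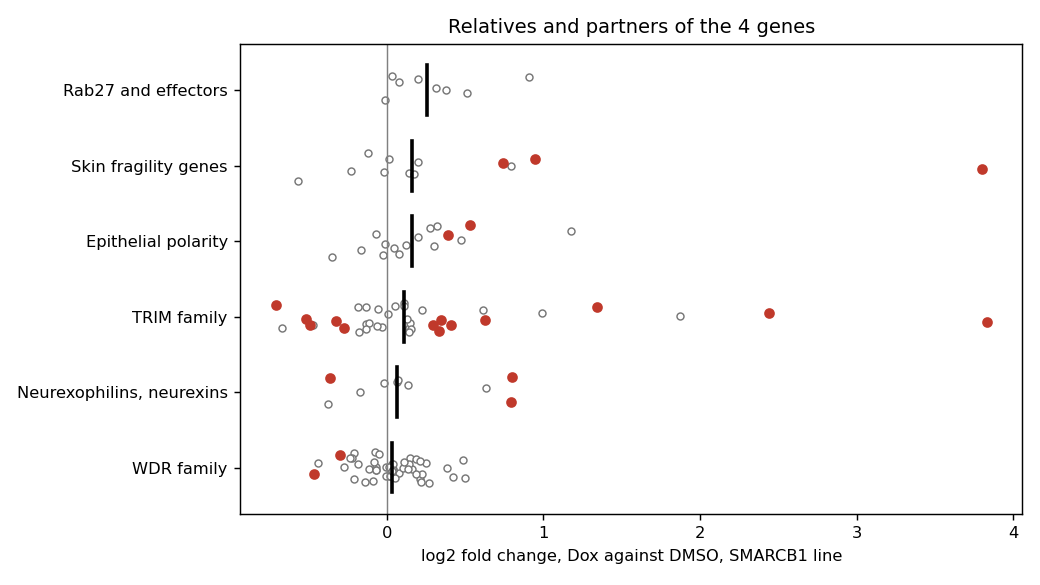
Log2 fold change of Dox against DMSO in the SMARCB1 line for tested relatives and partners of the 4 genes, 1 line per list. Filled points were called at an edgeR adjusted p under 0.05, open points were not, vertical bars are list medians, and vertical scatter has no meaning. Medians run from 0.03 for the WDR family to 0.25 for Rab27 and its effectors.

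Genes whose pattern over the 8 libraries was most like that of each of the 4 were named by the root mean square difference of log2 CPM after centring each gene. The measure includes the libraries that chose the 4 genes and is a description. For EXPH5 the nearest were FZD7 at 0.297, KSR1 at 0.363 and LRRC1 at 0.475, beside a median of 1.16 over 9817 genes. For TRIM62 they were CASZ1 at 0.145, IRAK2 at 0.246 and ZCCHC24 at 0.29, beside a median of 0.75. For NXPH3, whose level also separated the lines, they were MAP2K6 at 0.291, LCMT1-AS2 at 0.325 and BAMBI at 0.342, beside 1.17. For WDR17 they were XKR7 at 0.0791, KBTBD7 at 0.139 and GJA1 at 0.157, beside 0.612. The median of 1.16 was close to the root mean square of EXPH5 itself after centring, 1.15. FZD7 had 8.16 and 8.25 CPM in SMARCB1 DMSO, 28.0 and 32.8 CPM in SMARCB1 Dox and 6.23 to 7.18 CPM in the GFP line. Its rise was 3.70-fold, beside 5.98-fold for EXPH5, and its SMARCB1 DMSO libraries lay above its GFP libraries. None of the 12 genes named here lies within 200 kb of the gene it resembles.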

How the data were processed

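Each deposited file held raw counts of reads per gene from STAR alignments, counted by the authors in HTSeq (intersection-strict mode, exons) on hg38 with the GENCODE v42 annotation. Tool versions and the strand option were not given in the sources used here, so reads of overlapping genes on opposite strands may not be told apart. The labels name a ribosome profiling kit and its library kit, whereas the methods name a directional RNA kit. Symbols and positions came from GENCODE v44, which matched 62625 of 69215 genes, and exon length was the union of annotated exons. The 5 entries that name no gene held 27% to 29.3% of a library's reads and were left out.

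Counts were fitted with edgeR (4.0.16, R 4.3.3) after its default expression filter, with TMM scaling, 1 mean per group over all 8 libraries and a quasi-likelihood test. A gene was called where its adjusted p (Benjamini-Hochberg) was under 0.05 over 15931 genes in each of 4 comparisons: the Dox effect in each line, the difference of these effects, and SMARCB1 DMSO against GFP DMSO. CPM used TMM-scaled totals. Standard errors were derived from fold changes and F statistics. Counting intervals are 95% exact binomial, and intervals and floors (3 counts) cover counting error only, since PCR copies are not independent molecules. DESeq2 (1.42.0), other scalings, no expression filter, a replicate block, fewer libraries and windows of 100 and 500 kb were the alternatives.

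The 4 genes, the lists and the motifs were chosen with earlier results of these data known. Named genes were SMARCB1, the 4 genes, the nearest tested neighbour on each side, neighbours called or near the threshold, up to 5 called genes per list by size of change, and for each of the 4 genes the 3 of most like pattern with a mean of at least 5 CPM (log2 CPM with a prior count of 2). RAB27A, MYO5A, MLPH, DSP, DST, CDH1 and genes without counts were named beside their lists after their values were seen. Neighbours had gene bodies within 200 kb of the gene body, and 1 tested neighbour is not reported here. No column of a sample outside the series was present. Ribosome profiling libraries were not used here.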

Additional observations from a re-analysis of the deposited data

Results flagged for a closer look

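Between the lines the Dox effect differed, by a test of the difference itself in the edgeR fit over all genes, for 12 of the 176 tested list genes and neighbours within 500 kb (6.82%), beside 4.71% of all genes tested. EXPH5, TRIM62, NXPH3 and WDR17 were not put to this test, since they were chosen on a comparison it contains. Among the neighbours within 200 kb the difference was 1.16 on the log2 scale for FAM117A (adjusted p = 4.15e-05). In the wider surroundings of TRIM62 it was 1.29 for TMEM54 (adjusted p = 0.019), -0.66 for ZSCAN20 (0.0331) and 0.38 for KIAA1522 (0.0491). In those of NXPH3 it was 0.78 for DLX4 (adjusted p = 0.0159) and 0.81 for ITGA3 (0.014).

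Among relatives and partners the difference was 0.81 for JUP (adjusted p = 0.000787), 0.53 for PARD3 (0.0173) and 4.40 for COL17A1 (0.0223), the last on 3 counts in SMARCB1 DMSO. It was 2.23 for TRIM22 (adjusted p = 0.0224), -0.51 for TRIM55 (0.00827), a muscle gene of the TRIM family, and -0.51 for WDR3 (0.0199). In each of the 12 the GFP line moved by less than the SMARCB1 line, an outcome that choosing genes by this difference favours.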

How the results depend on the processing

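Depth limited genes at a few counts, and 2 libraries per group gave few degrees of freedom. Left out singly, libraries gave 1284 (without SMARCB1 Dox replicate 1) to 2088 genes called in the SMARCB1 line (2234 with all), 390 to 805 in the difference (750), 1 to 5 neighbours in the SMARCB1 line (2), 1 to 2 in the difference (1) and 4 to 7 between the DMSO groups (7). Neighbours called in the SMARCB1 line were 1 with only the 4 libraries compared. Without the expression filter 1 gene was called in the GFP line (0 with it). A window of 100 kb held 8 tested neighbours, giving 1 call with SMARCB1, 0 in the difference and 3 between the DMSO groups. A window of 500 kb held 35 tested neighbours, giving 9, 6 and 22 calls in the same order. Over all tested genes the shares called were 14%, 4.71% and 32%.

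Equal replicate numbers were no pairing on record (correlations of deviations 0.0309 to 0.148). With a replicate block 3149 of 15931 genes were called in the SMARCB1 line (2234 without it), and 7 of the 16 neighbours. With the block and a GC correction these counts were 3001 genes and 4 neighbours. In the difference 1282 genes were called with the block and 1234 with the block and GC correction. The block added calls for POGLUT3, ATM, PHC2, SLC35B1 and SPCS3 (adjusted p from 0.00958 to 0.0388), and the block with GC correction for DDX10 (0.25, 0.0283) and ZNF362 (-0.25, 0.0303).

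SPOP was not called with library totals (-0.18, adjusted p = 0.231) or only the 4 libraries (-0.27, 0.1), whereas PHC2 was called with library totals (0.35, 0.0137). Signs of uncalled values turned as follows, and the cause was not tested. With library totals NXPH3 in the GFP line was 0.0027 and PHB1 in the SMARCB1 line was 0.0356, and with the block and GC correction NGFR was -0.0407. Left out singly, libraries gave -0.18 to 0.22 for EXPH5, -0.19 to 0.19 for NXPH3 and -0.0239 to 0.0430 for SPOP in the GFP line. In the SMARCB1 line they gave -0.0773 to 0.24 for NGFR, -0.25 to 0.76 for AZIN2 and -0.96 to 1.27 for C11orf65.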

Other observations

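Beyond 200 kb the surroundings of TRIM62 and NXPH3 held more calls than the genes next to them. Between 200 and 500 kb from the 4 gene bodies 19 genes were tested and 7 were called with SMARCB1 (36.8%), beside 14% of all tested genes. Of these, 4 of 9 lay around TRIM62, 3 of 6 around NXPH3 and 0 of 4 around EXPH5, and none was tested around WDR17. The 7 genes were named after their values were seen, and the share was not tested against chance.

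Around TRIM62, TMEM54, a gene for a small membrane protein, rose from 2.13 and 1.64 to 4.38 and 4.12 CPM, a log2 fold change of 1.18 (edgeR adjusted p = 0.00118). FNDC5, the precursor of irisin, rose by 0.70 (adjusted p = 0.0129) and KIAA1522 rose by 0.37 (adjusted p = 0.00217). ZSCAN20, a zinc finger gene, went from 14.6 and 13.0 to 10.2 and 9.33 CPM, a log2 fold change of -0.50 (adjusted p = 0.00928). TMEM54, FNDC5 and KIAA1522 changed in the direction of TRIM62 and ZSCAN20 in the other.

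Around NXPH3 all 3 genes called rose, opposite to NXPH3. DLX4 and DLX3 are neighbouring homeobox genes. DLX4 went from 3.74 and 3.64 to 5.67 and 6.95 CPM with SMARCB1 and was at 24.4 to 27.8 CPM in the GFP line, a log2 fold change of 0.77 (edgeR adjusted p = 0.00104) in the SMARCB1 line. DLX3 went from 2.06 and 2.15 to 3.12 and 3.20 CPM and was at 31.7 to 36.4 CPM in the GFP line (log2 fold change 0.58, adjusted p = 0.0215). ITGA3, counted above among genes of skin fragility, lies 472 kb from NXPH3 and stood at 0.74.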
